A study of Homo sapiens with 17 samples.

Results

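CXCL1, CXCL2, CXCL3 and CXCL8, the CXC chemokine genes whose products attract neutrophils, were followed by RNA-seq in MDA-MB-231 cells over 24 h with TRAIL. They were chosen by gene symbol, as 4 of the 58870 entries of the deposited table. All 4 passed the filter on low counts, which left 15365 genes tested. MDA-MB-231 is an established human line from a triple-negative breast cancer, and the labels call its cell type Mesenchymal Basal B. TRAIL is a secreted relative of TNF that engages death receptors, and the labels describe the 45 nM used here as a suboptimal dose. RNA was taken at 0, 1, 3, 6, 12 and 24 h, and 3 libraries were analysed at each time except 1 h, for which the labels also give triplicates and 2 are analysed here.

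Every library carries the treatment label TRAIL treated, those at 0 h included, and the cells were cultured in RPMI with serum and antibiotic. The 0 h libraries therefore serve as the reference for all later times. The later times have no untreated counterpart among the libraries analysed here, so time with TRAIL and time in culture cannot be told apart. Nothing in the labels says that replicates came from separate cultures, so that the p-values measure the spread between these samples, which may be technical. The cells are 1 line in culture. In RNA from a whole culture, fewer cells that make a transcript and less of it per cell cannot be told apart.

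These chemokines carry the Glu-Leu-Arg (ELR) motif before the CXC cysteines. They bind CXCR1 and CXCR2 on neutrophils, CXCL8 (interleukin 8) both receptors and CXCL1, CXCL2 and CXCL3 (the GRO chemokines) mainly CXCR2, and direct these cells towards a gradient. Their genes are classic targets of NF-κB, and their mRNAs hold AU-rich elements in the 3′ UTR, at which proteins such as tristetraprolin (ZFP36) speed their decay, so that transcripts can rise and disappear within hours. Tumour cells of the basal type are known to secrete several of them.

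The 4 genes lie on chromosome 4 within 358.8 kb (GENCODE 29, GRCh38). CXCL8 (ENSG00000169429) spans 73740506 to 73743716 on the plus strand, and CXCL1 (ENSG00000163739) spans 73869393 to 73871242 on the same strand. CXCL3 (ENSG00000163734) spans 74036589 to 74038807 and CXCL2 (ENSG00000081041) spans 74097035 to 74099293, both on the minus strand. Each is protein-coding, has 4 exons in its longest coding transcript and overlaps 0 other annotated genes. The coding sequences of the 3 GRO genes were alike, with an identity of 93.5% for CXCL1 and CXCL2, 90.7% for CXCL1 and CXCL3 and 94.4% for CXCL2 and CXCL3. Identity to CXCL8 was 54.4%, 55.8% and 55.9% for CXCL1, CXCL2 and CXCL3. Reads of the GRO genes can therefore be hard to place. Of the 50-base windows in the longest coding transcript, 5.72% in CXCL1, 9.24% in CXCL2 and 5.26% in CXCL3 occurred in another GRO gene, and 0 did in CXCL8. No window of 100 bases was shared. The deposited counts were divided between CXCL2 and CXCL3 in 2 libraries. At 0 h in replicate 2 the table gives 71.59 for CXCL2 and 14.41 for CXCL3, which sum to 86, and at 6 h in replicate 3 it gives 177.29 and 70.71, which sum to 248.

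The promoter sequences are shown because the 4 genes moved together and because NF-κB is the factor these genes are best known for. Each is the stretch of 250 bases before the RefSeq gene start, from the RefSeq table for GRCh38.p14, written 5′ to 3′ on the strand of the gene. They lie at chr4:73869143-73869392 on the plus strand for CXCL1, chr4:74099196-74099445 on the minus strand for CXCL2, chr4:74038690-74038939 on the minus strand for CXCL3 and chr4:73740319-73740568 on the plus strand for CXCL8. All 4 members had an entry. Capitals mark the letters GGGAATTTCC in the GRO genes and GGAATTTCC in CXCL8, which match known NF-κB sequences.
CXCL1: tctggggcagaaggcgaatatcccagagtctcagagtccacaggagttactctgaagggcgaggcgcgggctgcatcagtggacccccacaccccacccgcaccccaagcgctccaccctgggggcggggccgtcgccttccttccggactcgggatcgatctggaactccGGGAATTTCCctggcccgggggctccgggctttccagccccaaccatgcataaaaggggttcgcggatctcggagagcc
CXCL2: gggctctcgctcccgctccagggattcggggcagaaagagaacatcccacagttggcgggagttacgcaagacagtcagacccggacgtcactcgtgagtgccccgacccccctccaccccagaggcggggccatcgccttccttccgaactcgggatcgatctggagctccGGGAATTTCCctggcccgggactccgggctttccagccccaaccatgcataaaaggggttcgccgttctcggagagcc
CXCL3: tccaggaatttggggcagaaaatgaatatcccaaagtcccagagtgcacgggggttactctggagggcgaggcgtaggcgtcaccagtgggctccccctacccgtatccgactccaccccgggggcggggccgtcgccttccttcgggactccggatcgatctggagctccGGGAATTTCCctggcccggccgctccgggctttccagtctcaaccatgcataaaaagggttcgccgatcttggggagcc
CXCL8: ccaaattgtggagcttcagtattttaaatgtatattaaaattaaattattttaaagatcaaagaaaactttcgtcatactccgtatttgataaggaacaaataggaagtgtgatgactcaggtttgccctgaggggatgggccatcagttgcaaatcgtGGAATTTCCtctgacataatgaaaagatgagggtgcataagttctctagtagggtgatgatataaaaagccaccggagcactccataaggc

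The letters GGGAATTTCC began 79 bases before the start in CXCL1 and CXCL3 and 78 bases before it in CXCL2, and they did not occur in the CXCL8 window. They were found on either strand in 50 of 35116 RefSeq promoters of this length, or 0.142%. The core GGAATTTCC, which lies inside the longer motif, was in all 4 windows, in CXCL8 at 91 bases before the start, and in 145 promoters, or 0.413%. The AP-1 letters TGANTCA occurred in the CXCL8 window only, at 137 bases before the start, and in 6.57% of all promoters. The letters TTGCAAAT, a sequence of the CCAAT/enhancer type, also occurred in CXCL8 only, at 102 bases before the start, and in 0.763% of promoters. The GC box GGGCGG lay 128 bases before the start in CXCL1 and CXCL3 and was in 42.6% of promoters. Both strands were searched, the motifs were chosen after the sequences had been read, and a match describes letters, not binding. Aligned over the window, the promoters were 81.4% identical between CXCL1 and CXCL3, 73.3% between CXCL2 and CXCL3 and 71.4% between CXCL1 and CXCL2. Identity of CXCL8 to the GRO genes was between 44.7% and 47.1%. GENCODE 29 places the starts of CXCL2, CXCL3 and CXCL8 upstream of the RefSeq starts, so that part of these windows is transcribed in its longest models.

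The AU-rich elements are shown as the stretch of 30 bases of each 3′ UTR that held the most ATTTA pentamers, which are in capitals. Each UTR is that of the coding transcript of GENCODE 29 with the longest 3′ UTR. The stretches lie at bases 129 to 158 of the UTR in CXCL1, 137 to 166 in CXCL2, 143 to 172 in CXCL3 and 644 to 673 in CXCL8.
CXCL1: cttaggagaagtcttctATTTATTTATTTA
CXCL2: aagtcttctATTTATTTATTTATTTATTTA
CXCL3: ttacgagggttctacttATTTAtgtATTTA
CXCL8: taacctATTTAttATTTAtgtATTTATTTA

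CXCL2 held 10 ATTTA pentamers in 721 bases of 3′ UTR, or 13.9 per kb, a density above that of 99.8% of 17042 protein-coding genes with a 3′ UTR of at least 200 bases. CXCL3 held 7 in 673 bases, or 10.4 per kb, above 99.4% of these genes. CXCL8 held 9 in 1252 bases, or 7.19 per kb, and CXCL1 held 5 in 706 bases, or 7.08 per kb, above 97.6% and 97.5% of them. The median of those genes was 1.69 per kb. By ATTTA density, all 4 members thus lay in the upper tail, with CXCL2 and CXCL3 denser than CXCL1 and CXCL8. The longer motif TTATTTAT gave another order, with 5 in CXCL2, 3 in CXCL1, 2 in CXCL3 and 2 in CXCL8.

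The libraries held between 13731520 and 19234924 counts in total. The line markers VIM, CD44, ZEB1, AXL and CAV1 summed to between 5650 and 6710 CPM (counts scaled to a common library total). Of 5 genes listed as absent or low in triple-negative lines, ESR1 had at most 2 counts and PGR at most 1 in any library. The others were detected, with 4 to 16 counts per library for CDH1, 204 to 346 for EPCAM and 786.39 to 1221 for ERBB2. These 5 genes summed to between 71.4 and 85.3 CPM. Of 7 leukocyte markers, CSF3R, S100A8, S100A9, MPO and CD3E were at 0 counts in every library, and the list summed to between 0.862 and 2.04 CPM. Of 16 pairs of replicates, replicates 2 and 3 at 6 h and replicates 2 and 3 at 24 h were closest, with a mean chi-square per gene of 1.55 and 1.68, where sampling noise alone gives about 1. The other pairs lay between 3.86 and 14.6. The share of mitochondrial counts was 6.75% ± 1.46 (SD, n = 3) at 0 h, 8.68% ± 1.45 (n = 2) at 1 h and 8.59% ± 0.521 (n = 3) at 3 h. At 6 h the share stood at 4.49% ± 0.83 (n = 3). The values of 12 h and 24 h were 5.72% ± 0.953 (n = 3) and 3.9% ± 0.24 (n = 3). The part of this share in the results was not tested. The slope of a library's log2 CPM deviations on log2 gene length also differed between times. It ran from -0.065 to -0.022 at 0 h, -0.097 to -0.035 at 1 h and -0.13 to -0.058 at 3 h. Later it ran from 0.013 to 0.098 at 6 h, -0.016 to 0.061 at 12 h and 0.01 to 0.13 at 24 h, so that 3 h and 6 h did not overlap.

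CXCL8 had the highest level of the 4 genes at every time, in CPM and per kb of exon. Its level was 10.6, 9.28 and 14.1 CPM in the 3 libraries at 0 h and 15.8 and 16 CPM in those at 1 h. At 3 h it was 57.9, 52.6 and 61.7 CPM, the highest of the series, and it then stood at 40.9, 38.4 and 33.8 CPM at 6 h. The 3 h libraries lay above all others without overlap. Later, the level was 24.1, 27.0 and 22.9 CPM at 12 h and 15.5, 17.1 and 16.8 CPM at 24 h, with the 24 h libraries above every 0 h library and overlapping those of 1 h. CXCL8 rose 5.07-fold at 3 h against 0 h, a log2 fold change of 2.34 with a standard error of 0.115 (edgeR quasi-likelihood test, adjusted p = 4.5e-11). It was still 1.45-fold higher at 24 h (log2 0.54, SE 0.124, edgeR adjusted p = 0.00277). Behind these levels stood 149 to 860 counts per library, the largest numbers among the members.

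CXCL1, which acts on neutrophils mainly through CXCR2, had a low level before the treatment and the largest fold change of the members. Its 0 h libraries held 1.24, 1.184 and 1.62 CPM and its 1 h libraries 1.96 and 2.53 CPM. At 3 h the level was 8.83, 10.8 and 10.8 CPM, and at 6 h it was 5.37, 5.90 and 5.94 CPM. Every library from 3 h on lay above those of 0 h and 1 h. At 12 h the level was 3.91, 3.31 and 2.67 CPM, and at 24 h it was 4.33, 3.10 and 3.20 CPM, so that the libraries of 12 h and 24 h overlapped. CXCL1 rose 7.49-fold at 3 h (log2 2.90, SE 0.186, edgeR adjusted p = 1.7e-09) and was still 2.63-fold higher at 24 h (log2 1.39, SE 0.207, edgeR adjusted p = 7.57e-05). It had 19 to 151 counts per library.

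CXCL2, the closest relative of CXCL3 in coding sequence, started higher than CXCL1, also per kb of exon, and changed less at 3 h. It stood at 4.36, 4.49 and 5.48 CPM at 0 h and at 5.82 and 5.53 CPM at 1 h. At 3 h its libraries were spread widely, at 15.6, 10.0 and 12.1 CPM, and they overlapped those of 6 h, at 10.2, 9.09 and 9.55 CPM. The level was 6.51, 5.72 and 6.16 CPM at 12 h and 4.39, 4.52 and 4.14 CPM at 24 h. The 24 h libraries lay in or below the range of the 0 h libraries. CXCL2 rose 2.63-fold at 3 h (log2 1.40, SE 0.142, edgeR adjusted p = 1.4e-06) and 2.01-fold at 6 h (log2 1.01, SE 0.143, edgeR adjusted p = 6.05e-05). At 24 h its log2 difference from 0 h was -0.13, with a 95% interval from -0.46 to 0.20 (edgeR adjusted p = 0.543).

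CXCL3 had the fewest counts, 14.41 to 77 per library, and the widest relative spread at 0 h and 12 h. Its level was 2.18, 0.872 and 1.62 CPM at 0 h and 1.39 and 2.13 CPM at 1 h, and these groups overlapped. At 3 h it was 5.19, 4.89 and 3.87 CPM, and at 6 h 4.87, 3.78 and 3.83 CPM, again with overlap. The 12 h libraries held 4.25, 2.26 and 2.61 CPM, with replicate 1 well above the others, and the 24 h libraries 1.46, 1.49 and 1.33 CPM, inside the range of 0 h. CXCL3 rose 2.98-fold at 3 h (log2 1.57, SE 0.271, edgeR adjusted p = 0.000576) and 2.66-fold at 6 h (log2 1.41, SE 0.269, edgeR adjusted p = 0.000825). At 24 h the log2 difference from 0 h was -0.12, with a 95% interval from -0.78 to 0.54 (edgeR adjusted p = 0.794).

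**Figure D1:**
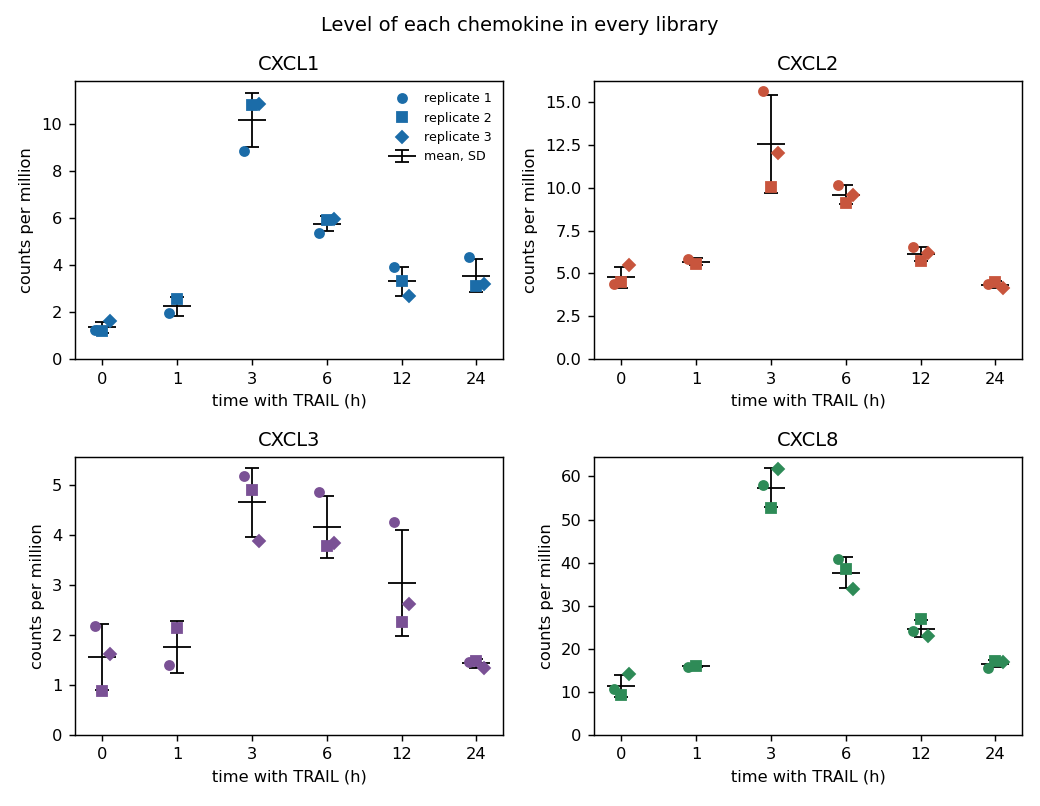
Level of CXCL1, CXCL2, CXCL3 and CXCL8 in CPM (linear axes from 0) against time with TRAIL in h. Each symbol is 1 library, its shape gives the replicate number, and the bars give the mean and SD of the group (n = 3, and n = 2 at 1 h). All 4 genes have their highest mean at 3 h, 57.4 CPM for CXCL8 and 10.2 CPM for CXCL1, and CXCL2 and CXCL3 are back in or below their 0 h range at 24 h.

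The 4 genes were called (edgeR adjusted p below 0.05) at different times. At 1 h, 0 of 4 were called higher by edgeR, against 0.26% of all genes tested, and DESeq2 and limma-voom also called 0, although 2 had an unadjusted p below 0.05. These were CXCL8, with a log2 fold change of 0.49 (SE 0.139, edgeR adjusted p = 0.304), and CXCL1, with 0.73 (SE 0.249, edgeR adjusted p = 0.58). The 1 h libraries of CXCL1, CXCL2 and CXCL8 all lay above those of 0 h, as did those of 10.1% of genes tested. CXCL8 was called at 1 h when 0 h replicate 3 was left out (log2 0.67, adjusted p = 0.0236) or when no filter was applied (log2 0.48, adjusted p = 0.0103).

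At 3 h, 4 of 4 were called higher, against 9.04% of all genes tested, and each by at least 2-fold, which held for 0.651% of genes. The 3 h libraries of all 4 lay above every 0 h library, as did those of 17.2% of genes. By log2 fold change, CXCL1 stood at rank 17 of 15365, CXCL8 at 26, CXCL3 at 74 and CXCL2 at 101. All 4 were also called higher at 3 h against 1 h, with log2 differences of 2.17 for CXCL1, 1.85 for CXCL8, 1.40 for CXCL3 and 1.15 for CXCL2, against 3.17% of genes. The step of CXCL3 was lost without 1 h replicate 1 (log2 1.12, adjusted p = 0.181, the remaining 1 h library being assumed to vary like the other groups). Over all times together, the edgeR F-test gave adjusted p-values of 2.9e-11 for CXCL8, 3.3e-09 for CXCL1, 1.9e-07 for CXCL2 and 4.5e-05 for CXCL3, and it called 64.2% of all genes. With trends of gene length and GC content removed from each library, the log2 fold changes at 3 h were 2.78, 1.29, 1.51 and 2.37 for CXCL1, CXCL2, CXCL3 and CXCL8.

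At 6 h, 4 of 4 were still higher than at 0 h, against 16.9% of genes tested. CXCL1 stood 4.24-fold higher (log2 2.08, SE 0.194, edgeR adjusted p = 4.75e-07) and CXCL8 3.32-fold higher (log2 1.73, SE 0.116, edgeR adjusted p = 6.05e-09). From 3 h to 6 h, 3 of 4 fell, against 20.3% of genes tested. CXCL1 fell by 0.82 on the log2 scale (edgeR adjusted p = 0.000309), CXCL8 by 0.61 (adjusted p = 0.000172) and CXCL2 by 0.39 (adjusted p = 0.0207), while CXCL3 differed by -0.16 (adjusted p = 0.607). Over the alternatives, the difference ran from -0.915 to -0.526 for CXCL1 and from -0.673 to -0.535 for CXCL8, and both kept their call. The call of CXCL2 rested largely on 3 h replicate 1, its highest library, and without it the difference was -0.20 (adjusted p = 0.201). That call was also lost without 6 h replicate 2 (-0.35, adjusted p = 0.0738) or 6 h replicate 3 (-0.39, adjusted p = 0.0587), with library size as the only scaling (-0.32, adjusted p = 0.0576), with the closest replicates averaged (-0.37, adjusted p = 0.0678) and with trends of length and GC content removed (-0.14, adjusted p = 0.425).

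At 12 h, 3 of 4 were called higher than at 0 h, against 5.96% of genes tested. CXCL1 was 2.42-fold higher (log2 1.27, SE 0.208, edgeR adjusted p = 0.000571), CXCL8 2.18-fold higher (log2 1.13, SE 0.119, edgeR adjusted p = 6.61e-06) and CXCL3 1.91-fold higher (log2 0.94, SE 0.279, edgeR adjusted p = 0.0331). CXCL3 was not called without 12 h replicate 1 (log2 0.63, adjusted p = 0.148), 0 h replicate 2 (0.65, adjusted p = 0.162) or 0 h replicate 3 (0.96, adjusted p = 0.068). CXCL2 had a log2 difference of 0.36, with a 95% interval from 0.04 to 0.67 (edgeR adjusted p = 0.125), although its 12 h libraries all lay above those of 0 h, as for 16.9% of genes tested. Summed to 1 entry because fragments are divided between them, CXCL2 and CXCL3 were called at 12 h (log2 0.52, adjusted p = 0.0224). From 6 h to 12 h, 3 of 4 fell, against 11.9% of genes tested: CXCL1 by 0.81, CXCL2 by 0.65 and CXCL8 by 0.61 on the log2 scale (edgeR adjusted p = 0.00187, 0.00236 and 0.000528).

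At 24 h, 2 of 4 were called higher than at 0 h, against 18% of genes tested, so that the count of members was no longer far from the background. These were CXCL1 and CXCL8. From 12 h to 24 h, 3 of 4 fell, against 5.6% of genes tested. CXCL3 fell by 1.06 on the log2 scale (edgeR adjusted p = 0.021), CXCL8 by 0.59 (adjusted p = 0.00338) and CXCL2 by 0.49 (adjusted p = 0.0414), while CXCL1 differed by 0.12 (adjusted p = 0.693). The call of CXCL2 was not made by DESeq2 (adjusted p = 0.0626) or limma-voom (adjusted p = 0.0618) and was lost with library size as the only scaling (adjusted p = 0.0621) and with trends of length and GC content removed (adjusted p = 0.116). It was also lost without any 1 of the 6 libraries of these times (adjusted p from 0.0507 to 0.144), and that of CXCL3 was lost, so that only CXCL8 of the 4 was called, without 12 h replicate 1, 24 h replicate 2 or 24 h replicate 3. The log2 difference of CXCL3 was then -0.76 (adjusted p = 0.132), -1.09 (adjusted p = 0.0731) and -1.01 (adjusted p = 0.0837). All 4 were lower at 24 h than at 6 h, against 12.1% of genes tested, by 1.53 for CXCL3, 1.19 for CXCL8, 1.14 for CXCL2 and 0.69 for CXCL1 on the log2 scale. The call of CXCL1 was lost with the closest replicates averaged (-0.59, adjusted p = 0.0708).

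**Figure D2:**
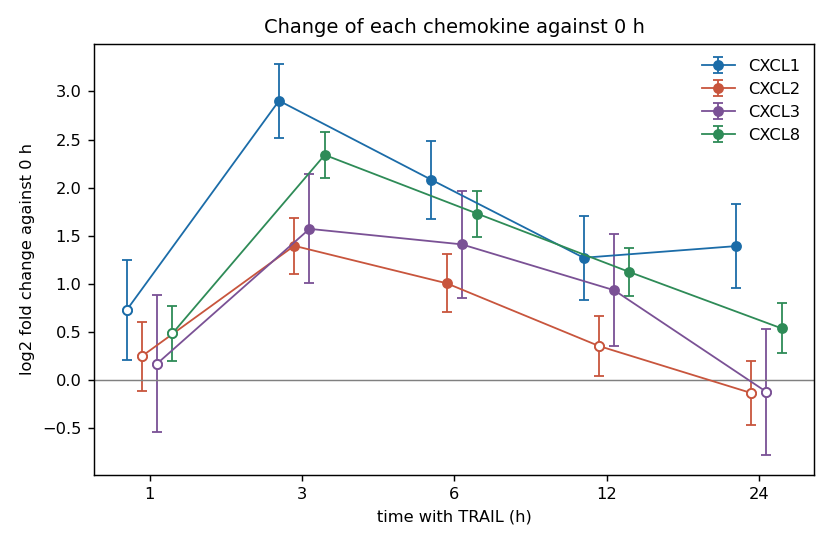
Log2 fold change against 0 h of each chemokine (y axis) at 1, 3, 6, 12 and 24 h with TRAIL (x axis), from the edgeR fit over 17 libraries. Points are estimates and bars 95% intervals, filled points were called (adjusted p below 0.05), and points of one time are moved sideways for legibility. CXCL1 peaks at 2.90 and keeps 1.39 at 24 h, whereas CXCL2 and CXCL3 end at -0.13 and -0.12.

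The members were also compared with each other within each library, as the log2 ratio of their CPM. The ratio of CXCL1 to CXCL2 was -1.81 ± 0.08 (SD, n = 3) at 0 h and -0.29 ± 0.48 (n = 3) at 3 h, higher by 1.52 (exact permutation test, two-sided, p = 0.1). At 24 h the same difference was 1.5 (exact permutation p = 0.1), and that of the ratio of CXCL1 to CXCL3 was 1.40 (exact permutation p = 0.1). The ratio of CXCL1 to CXCL8 was higher than at 0 h by 0.53 at 3 h and by 0.81 at 24 h (exact permutation p = 0.1 for each). In all of these, the libraries of the later time and those of 0 h did not overlap. The value of 0.1 is the smallest that this design allows, and none of the 30 combinations of pair and time can pass 0.05, the smallest adjusted p being 0.188. The ratio of CXCL2 to CXCL3 differed from 0 h by -0.27 at 3 h (exact permutation p = 0.5), -0.47 at 6 h (exact permutation p = 0.4), -0.63 at 12 h (exact permutation p = 0.3) and -0.10 at 24 h (exact permutation p = 0.7), and at each of these times the libraries overlapped those of 0 h. The values at 6 h and 12 h stayed negative with any 1 library left out, between -0.82 and -0.16 and between -0.97 and -0.31. Those at 3 h and 24 h changed sign without 0 h replicate 2, the library with the lowest CXCL3, to 0.05 at 3 h and 0.22 at 24 h.

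Relative to exon length, CXCL8 led at every time. Per kb of annotated exon it stood at 4.98 CPM per kb at 0 h, 25.2 at 3 h and 7.25 at 24 h. CXCL2 followed with 3.18, 8.38 and 2.90 CPM per kb, and CXCL1 with 1.04, 7.83 and 2.73, so that CXCL1 approached CXCL2 from 3 h on. CXCL3 was lowest with 0.701, 2.10 and 0.644 CPM per kb. The sum of the 4 genes was 9.90 ± 1.75 CPM per kb (SD, n = 3) at 0 h, 43.6 ± 2.76 at 3 h and 13.5 ± 0.272 at 24 h. Of that sum, CXCL8 made up 50.1% at 0 h, 57.9% at 3 h and 53.6% at 24 h. The share of CXCL1 went from 10.5% at 0 h to 20.2% at 24 h and that of CXCL2 from 32.4% to 21.4%. The place of CXCL3 depends on the length used. With the longest coding transcript in place of all annotated exons, CXCL3 stood at 1.45 CPM per kb at 0 h, above CXCL1 at 1.23, and at 4.33 CPM per kb at 3 h.

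**Figure D3:**
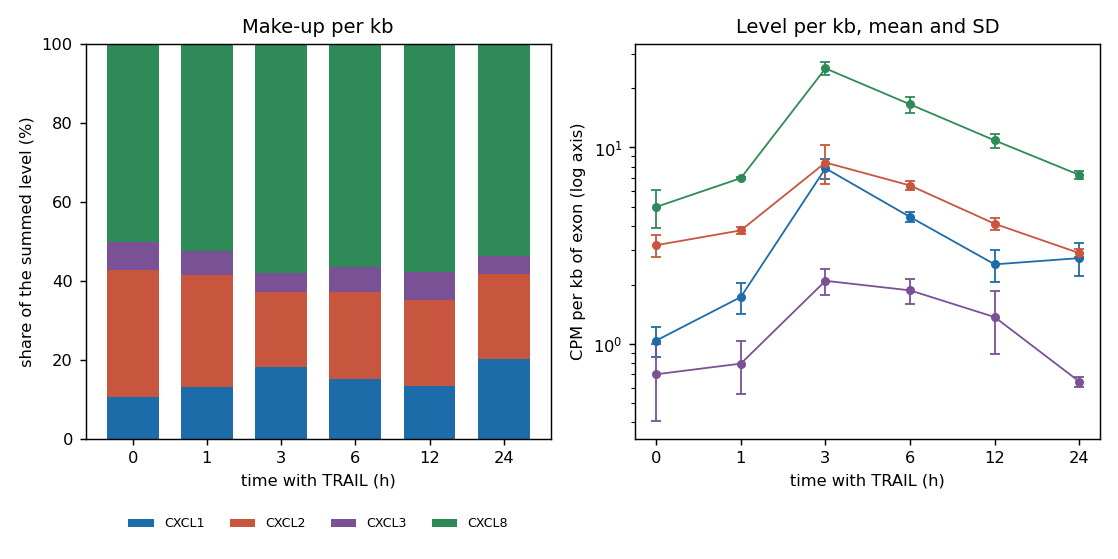
Left, share of each chemokine in the summed level per kb (%, y axis) at each time with TRAIL (x axis). Right, mean level in CPM per kb of exon (log axis) with SD over the libraries (n = 3, and n = 2 at 1 h). CXCL8 holds between 50.1% and 57.9% of the sum, and CXCL1 goes from 1.04 to 7.83 CPM per kb between 0 h and 3 h, next to CXCL2 at 8.38.

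The order of the times differed between the members. For CXCL8 the means ran from 3 h down through 6, 12, 24 and 1 h to 0 h, and only the libraries of 24 h and 1 h overlapped. For CXCL1 the order was 3, 6, 24, 12, 1 and 0 h, and only those of 24 h and 12 h overlapped. For CXCL2 the 24 h libraries came last, and the pairs 3 and 6 h, 12 and 1 h, and 0 and 24 h overlapped. For CXCL3, the libraries fell into 2 sets, 3, 6 and 12 h above 1, 0 and 24 h, with overlap between neighbours inside each set. Across the 17 libraries, Pearson's r of log2 CPM was 0.94 for CXCL1 and CXCL8, 0.926 for CXCL2 and CXCL8, 0.875 for CXCL3 and CXCL8 and 0.866 for CXCL2 and CXCL3. It was 0.815 for CXCL1 and CXCL2 and 0.78 for CXCL1 and CXCL3. These values describe libraries that share times and depth.

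Among 11329 tested genes with a mean log2 CPM of at least 2, those with the pattern most like CXCL1 over the 17 libraries were NFKBIE (r 0.972), TNFAIP3 (0.954), CXCL8 (0.94), CDC42SE1 (0.927) and TPRA1 (0.927). For CXCL8 they were PLAU (0.963), NFKBIE (0.943), TNFAIP3 (0.932), TPRA1 (0.929) and CXCL2 (0.926). CXCL1 and CXCL3 lay below that mean level, so neither could be listed here, although r was 0.94 for CXCL1 and CXCL8. For CXCL2 they were PROSER2 (0.943), CXCL8 (0.926), LIF (0.92), SCAF4 (0.919) and ZNF202 (0.915). For CXCL3 they were CSKMT (0.934), PPP1R18 (0.934), TGIF1 (0.926), RRAD (0.911) and PLAU (0.9).

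The neighbours of the members in the cluster were nearly silent. Of 16 genes annotated between the ends of CXCL8 and CXCL2, 9 are protein-coding. The 5 besides the members, CXCL5 and CXCL6, which are neutrophil attractants too, and the platelet genes PPBP, PF4 and PF4V1, had at most 9 counts in any library, and 0 of 5 passed the filter. Of CXC chemokines without the ELR motif, which act mainly on lymphocytes, 3 of 8 were tested. At 3 h the edgeR adjusted p-values were 0.177 for CXCL10, 0.42 for CXCL11 and 0.835 for CXCL16. At 24 h, 2 were called higher, against 18% of all genes, CXCL10 (log2 3.23, edgeR adjusted p = 0.00344) and CXCL11 (log2 2.10, edgeR adjusted p = 5.97e-05). Both are interferon-responsive genes. Their levels were low, 0.840 ± 0.489 CPM (SD, n = 3) for CXCL10 and 1.80 ± 0.174 CPM (n = 3) for CXCL11 at 24 h, and CXCL10 was at 0 counts in some 0 h libraries. The mean of CXCL10 was 0.083 CPM at 0 h, 0.323 CPM at 3 h, 0.249 CPM at 6 h and 0.602 CPM at 12 h. CXCL10 thus owed its place among the tested genes to the libraries of 12 h and 24 h, and its call at 24 h adds no support. With 1 library left out, the log2 fold change of CXCL10 at 24 h ran from 2.69 to 6.76, the highest without 0 h replicate 1, where the remaining 0 h libraries are at 0 and the fitted value depends on the prior count.

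Of the receptors and binders of these chemokines, CXCR1 and CXCR2 and the scavenger ACKR1 were at 0 counts in every library, which allows up to 3 counts per library, and 3 of 6 genes were tested. SDC4, a heparan sulphate proteoglycan that can hold chemokines at the cell surface, was called higher at 3 h (log2 0.36, edgeR adjusted p = 0.000166), and SDC1, a proteoglycan of the same family, was called lower (log2 -0.43, edgeR adjusted p = 0.000124). Genes listed as other factors acting on neutrophils, a broad list that is not limited to factors acting mainly on these cells, also rose at 3 h. Of 10, 9 were tested and 9 were called higher at 3 h, against 9.04% of all genes, with a median log2 fold change of 1.5 against -0.0041 over all genes. TNF, 1 of the 9, had 0 counts in every 0 h library and at most 9 in any library. Its mean was highest at 3 h, at 0.647 CPM, against 0.369 CPM at 6 h. It thus owed its place among the tested genes to the 3 h libraries, and its call there adds no support. At 24 h, 5 of the 9 were called higher, against 18% of all genes, with a median of 0.94. Without 3 h replicate 1 or 3 h replicate 2, 5 of the 9 were called at 3 h, against 5.73% and 5.42% of all genes. CSF2 (GM-CSF) rose by a log2 fold change of 2.34 at 3 h (edgeR adjusted p = 9.73e-11), the same size as that of CXCL8, and IL6 rose by 1.63 (edgeR adjusted p = 1.48e-09). CSF3 (G-CSF) rose at 3 h (log2 1.59, edgeR adjusted p = 0.00359) and was still higher at 24 h (1.39, adjusted p = 0.00452), but it had only 6 to 26 counts per library. LIF rose at 3 h (log2 0.97, edgeR adjusted p = 3.69e-09) and, like CXCL2 and CXCL3, was not called at 24 h, with a log2 difference of -0.13 (adjusted p = 0.133). CSF1 took another course, with a log2 fold change of 0.20 at 3 h and 0.97 at 24 h (edgeR adjusted p = 0.0164 and 2.2e-10). The call of CSF1 at 3 h was lost with library size as the only scaling (log2 0.13, adjusted p = 0.112), with no filter (adjusted p = 0.092) and without 0 h replicate 2, 0 h replicate 3, 3 h replicate 1 or 3 h replicate 2 (adjusted p from 0.0507 to 0.069).

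Of 17 genes for transcription factors and inhibitors known at these promoters, 13 were called higher and 1, FOS, lower at 3 h, against 9.04% and 8.71% of all genes, with a median log2 fold change of 0.74. The inhibitors of NF-κB NFKBIA (log2 1.39, edgeR adjusted p = 1.51e-11) and NFKBIE (1.29, adjusted p = 4.5e-11) and the subunits RELB (1.20, adjusted p = 6.33e-09) and NFKB2 (1.01, adjusted p = 2.72e-09) rose at 3 h, as did the AP-1 members JUNB (1.75, adjusted p = 3.46e-10) and FOSL1 (0.97, adjusted p = 8.23e-08). FOS, another AP-1 member, fell by 1.84 on the log2 scale (edgeR adjusted p = 6.03e-08). At 24 h, 7 were called higher and 4 lower, against 18% and 17.1% of all genes. Those higher at 24 h were RELB, NFKB1, NFKB2, NFKBIA, NFKBIE, BCL3 and JUNB, and those lower were CEBPB, FOS, FOSL1 and ATF3. The counts of CEBPB were not whole in 17 libraries, so that its value depends on how fragments were divided.

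Of 9 tested genes on the list of regulators of chemokine mRNA decay, 3 were called higher at 3 h, against 9.04% of all genes. They were ZFP36L1, ZC3H12A and TNIP1, and the median of the log2 fold changes was 0.14. At 6 h, 7 were called higher, TNIP1 among them, against 16.9% of all genes, with a median of 0.52. TNIP1 is not itself a decay factor, so these counts and medians do not describe decay regulators alone. ZC3H12A (regnase-1), an endonuclease that cuts cytokine mRNAs, rose already at 1 h (log2 1.05, edgeR adjusted p = 0.000578) and stood at 1.30 at 3 h (adjusted p = 1.24e-06). ZFP36L1, which binds AU-rich elements, rose at 3 h (log2 0.55, edgeR adjusted p = 1.09e-05). ZFP36 itself was called at 6 h (log2 0.56, edgeR adjusted p = 3.92e-05).

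**Figure D4:**
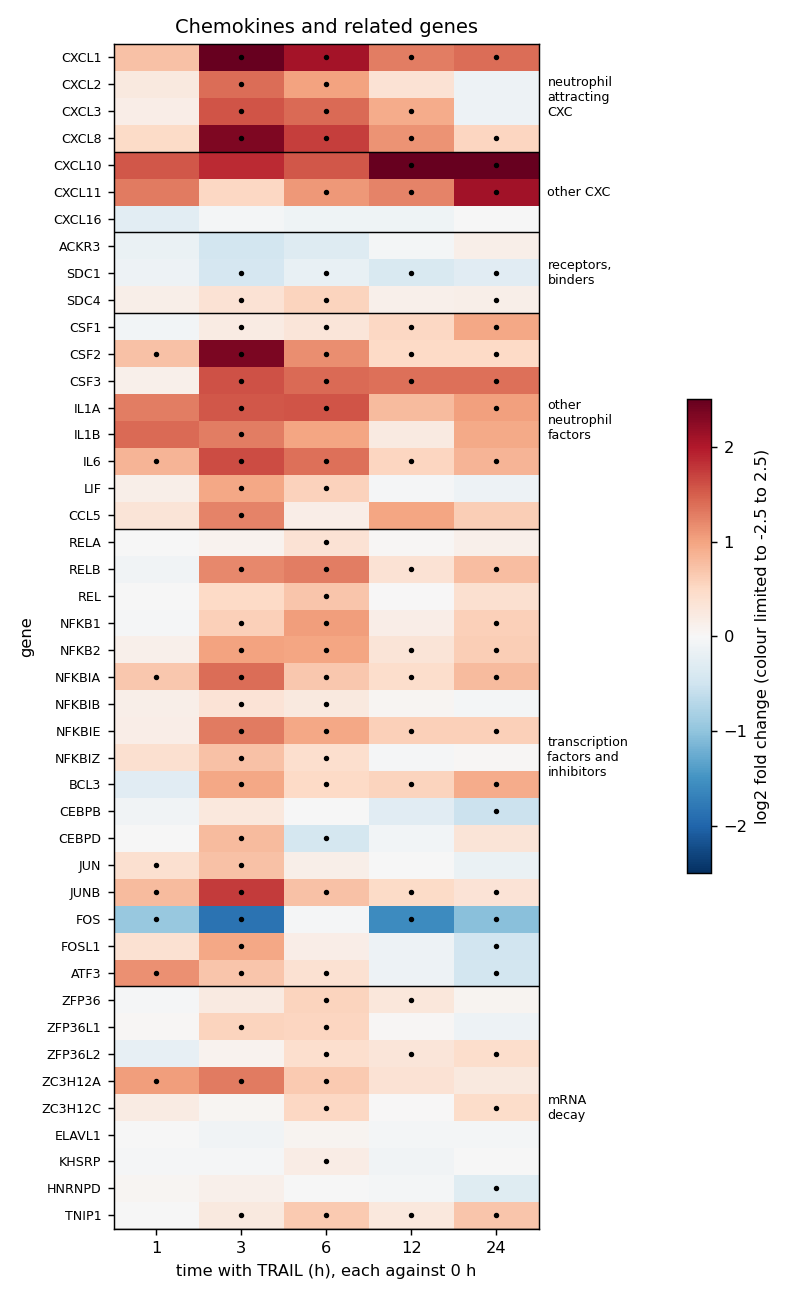
Log2 fold change against 0 h (colour, limited to the range from -2.5 to 2.5) of the 4 chemokines and the tested genes of the related lists (rows) at 1, 3, 6, 12 and 24 h with TRAIL (columns). A dot marks a call (edgeR adjusted p below 0.05), and TNF is left out because its 0 h libraries are all at 0 counts. The 4 chemokines and 8 of the 8 genes drawn from the list of other neutrophil factors are called at 3 h. CXCL10 and CXCL11 reach 3.23 and 2.10 at 24 h.

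Genes that share the core GGAATTTCC with the members were also counted. Besides the members, 52 tested genes had it in the promoter window. Of the 52, 8 or 15.4% were called higher at 3 h, against 9.45% of 10567 tested genes with a promoter entry. NFKBIA, NFKBIZ, NFKB1 and ICAM1 were among these, while CXCL10, which also has the core, was not called (edgeR adjusted p = 0.177). Called lower at 3 h were 4 or 7.69%, PLLP, UEVLD, OAS3 and STXBP3, against 9.84%. The shares called higher were 1.92% at 1 h, against 0.293%, and 34.6% at 6 h, against 19.8%. Later they were 19.2% at 12 h, against 6.95%, and 30.8% at 24 h, against 21%. The shares called lower were 9.62% at 6 h, against 13.9%, 0% at 12 h, against 6.95%, and 9.62% at 24 h, against 17.6%. Most genes with these letters were therefore not called, and the shares describe these promoters without a test.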

How the data were processed

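RNA was taken from MDA-MB-231 cells at 6 times with TRAIL, and 17 libraries were analysed. Per the labels' protocols, libraries came from a stranded mRNA kit for paired-end sequencing. The authors deposited 1 table of expected counts per gene, made by RSEM per the file name and not scaled to depth or length, and 10.8% of its values are not whole. The submitters' processing notes name cutadapt 1.18, STAR 2.7.0f and hg38. The RSEM version, the annotation and the strand setting are not given in the sources used here. Of the 58870 entries, 58597 matched a GENCODE 29 identifier with the version ignored.

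Expected counts were rounded, filtered by filterByExpr and scaled by TMM (factors 0.939 to 1.06). A quasi-likelihood model of edgeR 4.0.16 (R 4.3.3) with 1 mean per time was fitted to all 17 libraries, so that groups share 1 estimate of the spread, and p-values were adjusted by the Benjamini-Hochberg method over 15365 genes in each of 10 comparisons, as was the F-test. The common biological coefficient of variation was 7.06%. Standard errors were derived from the coefficient and the F statistic. Ratios of members used log2 CPM with a prior count of 0.5 and likeness a prior count of 2. The pipeline was tested on simulated data with known changes. Alternatives were RLE, upper-quartile and library-size scaling, omission of the filter, DESeq2 1.42.0, a filter on a mean count of 10, voom of limma 3.58.1, non-robust estimation, only the 2 groups compared, the replicate block, unrounded counts, trends of length and GC content removed, the closest replicates averaged, and each library left out. Summing CXCL2 and CXCL3, coding-transcript length and a call with 1 library left at 1 h were chosen after seeing the data.

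The members and lists were chosen with earlier results of these data known. All 4 members are named, for each the 5 tested genes with the most similar pattern (Pearson's r, mean log2 CPM of at least 2), and list genes where they were called or their level is needed. CXCL5, CXCL6 and the ICAM1 promoter match are named as neighbours or matches. N4BP1 was not analysed here.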

Additional observations from a re-analysis of the deposited data

How the results depend on the processing

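Of 762 recomputed changes of CXCL1, CXCL2, CXCL3 and CXCL8, 722 kept their direction and their side of the threshold. All 4 calls at 3 h and at 6 h held under every alternative run, with log2 fold changes at 3 h of 2.78 to 3.06 for CXCL1, 1.21 to 1.54 for CXCL2, 1.29 to 1.90 for CXCL3 and 2.22 to 2.53 for CXCL8. The number of members called higher at 1 h became 1 with no filter, and was 0 to 1 with libraries left out. The number called lower from 12 h to 24 h became 1 with the closest replicates of 6 h and 24 h averaged, and was 1 to 2 with libraries left out. With those replicates averaged, CXCL3 was not called at 12 h (0.93, adjusted p = 0.0524), nor was the fall of CXCL1 from 6 h to 24 h (-0.59, adjusted p = 0.0708). With only the 2 groups compared, CXCL3 at 12 h had an adjusted p of 0.0683.

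With trends of length and GC content removed, the sign changed for CXCL2 at 24 h (0.0284), CXCL3 at 24 h (0.00123), CXCL3 from 3 h to 6 h (0.0167) and NFKBIZ at 24 h (-0.0566), none of them called. In the same setting, the count of receptors and binders called lower at 24 h, SDC1 alone in the main fit, became 0. Genes of the mRNA decay list called at 24 h became 5 higher and 3 lower, from 3 and 1 of 9 tested. The shares of all genes called at 24 h in that setting were 18.5% higher and 17.2% lower. With libraries left out, CXCL3 at 1 h ran from -0.17 to 0.49, CXCL3 at 24 h from -0.41 to 0.20, CXCL1 from 12 h to 24 h from -0.054 to 0.251 and NFKBIZ at 24 h from -0.0586 to 0.0905. Ratios that changed sign when a library was left out were CXCL1 to CXCL3 at 12 h (-0.062 to 0.55), CXCL1 to CXCL8 at 12 h (-0.02 to 0.22), CXCL2 to CXCL3 at 1 h (-0.33 to 0.36), 3 h (-0.62 to 0.05) and 24 h (-0.44 to 0.22), and CXCL3 to CXCL8 at 1 h (-0.56 to 0.05), 6 h (-0.49 to 0.055) and 12 h (-0.43 to 0.17). CXC chemokines without the ELR motif called higher were 0 to 1 at 3 h with libraries left out, against 4.87% to 9.75% of all genes. At 24 h, 1 was called with a mean count of at least 10, against 19.1%, or with only the 2 groups compared, against 18.2%. Genes listed as other neutrophil factors called at 3 h were 5 to 9 with libraries left out, against 4.87% to 9.75% of all genes. On the list of receptors and binders, SDC4 alone was called higher at 24 h, 1 of 3 tested, against 18% of all genes. That count became 0 with upper-quartile scaling, no filter, only the 2 groups compared or averaged replicates. The shares of all genes in these settings were 16.6%, 9.19%, 18.2% and 11.2% in turn. With libraries left out the count was 0 to 1, against 11.4% to 19.6%. The causes were not tested.

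The share of all genes called higher moved with the setting, from 4.82% to 12.1% at 3 h, 8.85% to 18.6% at 6 h, 2.13% to 7.99% at 12 h and 9.19% to 24.4% at 24 h. The replicate numbers were not taken to pair the samples. Over 40 pairs of libraries with the same number, the correlation of deviations from the group means ran from -0.47 to 0.52 and was over 0.1 in 19, and 8 of 17 libraries were closest on average to libraries of their own number. With the replicate block, genes called higher at 3 h went from 1389 to 1511, no member changed its call, and CXCL8 at 3 h stood at 2.34. CXCL3 had 14.41 to 77 counts per library and a standard error of 0.271 at 3 h.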

Other observations

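PECAM1 and COL1A1, listed as markers of endothelium and fibroblasts, moved in this culture of 1 line. PECAM1 was higher at 24 h by a log2 fold change of 1.17 (edgeR adjusted p = 0.00258), and COL1A1 was 0.70 at 3 h and -0.53 at 24 h (edgeR adjusted p = 0.00138 and 0.00835). The list summed to between 8.67 and 18.3 CPM over the libraries. TNF, a known inducer of the 4 chemokines, was at 0 counts in all libraries of 0 h and had at most 9 counts in any library.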
